A study of Mus musculus with 20 samples.

Results

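The IL-33 pathway was followed through 7 genes, picked by symbol out of the 46983 genes of the count table: the cytokine Il33, the receptor chains Il1rl1 (ST2) and Il1rap (IL-1 receptor accessory protein), and the signalling adaptors Myd88, Irak1, Irak4 and Traf6. The data set held 20 RNA-seq libraries of orthotopic KPC pancreatic tumours, a mouse model of pancreatic cancer, taken 2 weeks after cultured KPC cells were injected into the pancreas of C57BL/6 mice that received no treatment. The 4 groups of 5 libraries were CD45+ leukocytes selected on magnetic beads from IL33-/- hosts (sorted IL33KO) and from wild-type hosts (sorted WT), and whole tumour from IL33-/- hosts (bulk IL33KO) and from wild-type hosts (bulk WT). The genotype is that of the host. The labels do not give an Il33 genotype for the implanted cells, say which cell line went into which mouse, or tie the sorted and bulk libraries to the same animals.

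IL-33 is an alarmin: it is held in the nucleus of epithelial, endothelial and stromal cells and released when they are damaged. It binds ST2, which then pairs with the accessory protein, and the intracellular domains of the pair recruit MyD88, the kinases IRAK4 and IRAK1, and the ubiquitin ligase TRAF6, leading to NF-kB and MAP kinase activation. In tissues, ST2 is best known on group 2 innate lymphoid cells (ILC2), mast cells and regulatory T cells, which answer with type 2 cytokines and amphiregulin.

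Between 51.3 and 81.0 M reads per library (M, mega; median 59.5 M) were counted in genes, so that 3 counts corresponded to 0.0326 to 0.0686 CPM, the unit of counts scaled to library size used here. All 7 genes passed the filter on low counts in every comparison, and the lowest count of any of them was 40, for Il1rl1 in bulk WT 2. Sorted WT 3 and sorted IL33KO 3 stood apart from the other sorted libraries on the first principal component, at 65.6 and 56.4 against -37.9 to 18.5, and bulk WT 1, 2 and 4 lay together at -70.6 to -60.1, away from the other bulk libraries at -13.9 to 89.0. Leukocyte genes followed the selection: the summed level of 8 pan-leukocyte genes was 6201 to 7355 CPM in sorted IL33KO and 6261 to 8330 CPM in sorted WT libraries, against 550 to 1129 CPM in bulk IL33KO and 431 to 1106 CPM in bulk WT libraries. Transcripts of 7 epithelial genes (Krt8, Krt18, Krt19, Krt7, Epcam, Cdh1 and Cldn4) were also counted in the sorted libraries and summed to 1760 to 2675 CPM in sorted IL33KO and 1019 to 2515 CPM in sorted WT libraries, against 6221 to 8931 CPM in bulk IL33KO and 6915 to 8973 CPM in bulk WT libraries.

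Il33 lies on chromosome 19 at 29925114 to 29960718, plus strand, and Il1rl1 on chromosome 1 at 40429570 to 40465415, plus strand (GENCODE M21 on GRCm38, the build the submitters name as mm10). Il1rl1 has Il1r2, Il1r1, Il1rl2, Il18r1 and Il18rap as neighbours on the same strand, within 478 kb. RefSeq lists 2 starts for each of Il33 and Il1rl1, 20.7 kb and 10.1 kb apart, and the gene counts add up the transcripts from both. As background, the upstream Il1rl1 start is known from mast cells and other haematopoietic cells, where GATA factors act on it, and the downstream start from fibroblasts. The 250 bases before each start are shown because the sorted and bulk levels of these genes cannot be assigned to either start. Capitals mark GATAA, the core letters of GATA factor motifs, or its reverse complement TTATC.

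Il33 start 1, chr19:29924863-29925112, plus strand: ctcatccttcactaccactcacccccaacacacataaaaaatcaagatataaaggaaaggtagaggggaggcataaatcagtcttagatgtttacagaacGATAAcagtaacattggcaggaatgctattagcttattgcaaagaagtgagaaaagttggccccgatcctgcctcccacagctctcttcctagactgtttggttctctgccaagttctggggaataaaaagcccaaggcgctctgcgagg
Il33 start 2, chr19:29945540-29945789, plus strand: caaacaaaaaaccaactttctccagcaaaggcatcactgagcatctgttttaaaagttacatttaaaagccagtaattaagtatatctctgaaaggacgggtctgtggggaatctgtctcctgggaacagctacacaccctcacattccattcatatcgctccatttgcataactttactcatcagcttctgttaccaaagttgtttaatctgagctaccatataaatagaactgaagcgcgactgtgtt
Il1rl1 start 1, chr1:40429320-40429569, plus strand: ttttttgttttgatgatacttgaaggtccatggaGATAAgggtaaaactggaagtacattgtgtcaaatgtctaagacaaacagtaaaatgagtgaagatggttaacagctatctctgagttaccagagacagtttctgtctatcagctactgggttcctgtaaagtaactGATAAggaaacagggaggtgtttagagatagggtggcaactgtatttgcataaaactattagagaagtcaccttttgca
Il1rl1 start 2, chr1:40439379-40439628, plus strand: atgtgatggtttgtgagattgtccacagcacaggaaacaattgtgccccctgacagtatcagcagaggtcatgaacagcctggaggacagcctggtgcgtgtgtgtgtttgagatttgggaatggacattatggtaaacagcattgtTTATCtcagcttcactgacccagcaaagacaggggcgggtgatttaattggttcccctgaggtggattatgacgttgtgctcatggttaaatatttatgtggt

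The sequences are from RefSeq on GRCm38.p6, each read 5′ to 3′ on its gene's strand. GATAA on either strand occurred 2 times before the upstream Il1rl1 start, 1 time before its downstream start, 1 time before the first Il33 start and not before the second. For comparison, 22.6% of 32817 mouse promoter windows of the same length hold it. No window of the 7 genes held the AP-1 core TGANTCA, which 6.75% of all windows hold, and the windows of the other 5 genes held no GATAA. These are matches of letters, not measured sites.

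Between sorted leukocytes and bulk tumour, the ligand and its receptor lay on opposite sides. Il33 was lower in sorted leukocytes than in bulk tumour, 2.62-fold in IL33KO and 4.50-fold in WT hosts, whereas the receptor chains Il1rl1 and Il1rap were 3.94- to 7.50-fold higher in sorted leukocytes. The adaptors were also higher in sorted leukocytes, from 2.97- and 3.58-fold for Myd88 in IL33KO and WT hosts down to 1.27- and 1.17-fold for Irak1. By edgeR's quasi-likelihood test with Benjamini-Hochberg adjustment over all genes, 7 of 7 genes passed adjusted p 0.05 in IL33KO hosts and 7 of 7 in WT hosts. This stands beside 63.0% of all genes tested in IL33KO hosts and 68.0% in WT hosts, so passing was common in these comparisons. Il33 was among the 31.7% of genes called lower in sorted leukocytes in IL33KO hosts and the 34.3% in WT hosts, and the other 6 genes among the 31.3% and 33.7% called higher. In bulk tumour, fewer cells of a type and less RNA per cell cannot be told apart.

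**Figure D1:**
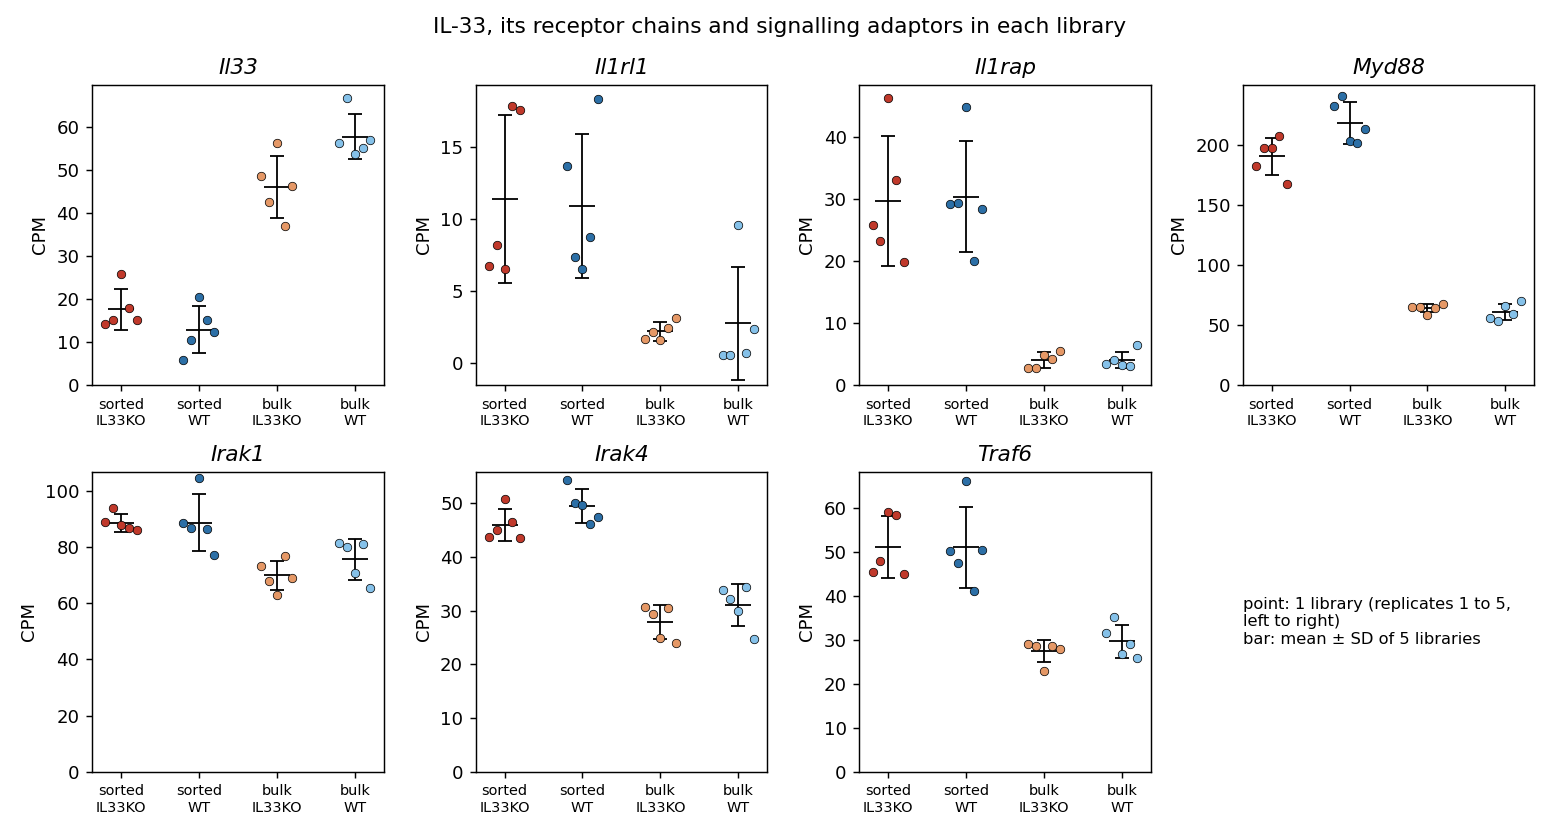
CPM of the 7 genes in each of the 20 libraries, 1 point per library, with sorted IL33KO, sorted WT, bulk IL33KO and bulk WT from left to right and bars for the mean ± SD of 5 libraries. Il33 is lower, and Il1rap, Myd88, Irak4 and Traf6 are higher, in every sorted library than in every bulk library. Within a host genotype, 48.8% (IL33KO) and 50.5% (WT) of all genes do not overlap between compartments. The Il1rl1 panel shows bulk WT 3 at 9.60 CPM, above the other bulk libraries.

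Il33, the ligand, was read at 14.3, 15.0, 25.7, 17.8 and 15.1 CPM in sorted IL33KO libraries 1 to 5, against 48.4, 42.4, 56.3, 37.0 and 46.3 CPM in bulk IL33KO libraries 1 to 5. In WT hosts it was at 5.76, 10.5, 20.6, 15.0 and 12.3 CPM in the sorted libraries, against 56.3, 66.7, 53.6, 55.0 and 56.9 CPM in the bulk libraries. Every sorted library was below every bulk library in both host genotypes, where 48.8% of all genes did not overlap between compartments in IL33KO and 50.5% in WT hosts, and the 2 highest sorted values were in sorted IL33KO 3 and sorted WT 3, the libraries that stood apart. The sorted to bulk log2 fold change was -1.39 (SE 0.24, edgeR adjusted p = 4.92e-05) in IL33KO hosts and -2.17 (SE 0.24, adjusted p = 2.37e-07) in WT hosts. Sorted libraries kept 38.1% of the mean bulk Il33 CPM in IL33KO hosts and 22.2% in WT hosts.

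Epithelial genes had sorted to bulk differences of a similar size. The summed epithelial level in sorted libraries was 27.8% of that in bulk libraries in IL33KO hosts and 24.3% in WT hosts, and the sorted mean was 29.3% and 26.1% of the bulk mean for Krt19, a ductal keratin. All 7 epithelial genes were called lower in sorted libraries in IL33KO hosts and 6 of 7 in WT hosts, with Cldn4 the exception, and their median log2 fold changes were -1.89 and -2.04. The share called lower over all genes was 31.7% and 34.3%. The sum of the fibroblast genes in sorted libraries was 18.2% of the bulk sum in IL33KO and 36.1% in WT hosts. For the mesothelial genes it was 21.2% and 21.0%, but Msln made up 77.3 to 97.2% of that sum in the bulk libraries, and without Msln, left out after seeing the data, the shares were 12.4% and 46.9%. Endothelial genes summed to 154% and 195% of the bulk level, but their median log2 fold changes were negative, -0.86 and -0.84. Only Pecam1, at 344% and 435%, and Eng, at 160% and 264%, were above the bulk level. Cdh5, Kdr, Tek, Tie1, Emcn and Vwf were below it, from 29.5% (Emcn, WT hosts) to 86.1% (Vwf, WT hosts). Per 1000 CPM of the epithelial genes, Il33 had a median of 8.52 CPM (5.65 to 12.4) in sorted IL33KO libraries, 5.65 CPM (5.04 to 11.9) in sorted WT, 6.11 CPM (4.89 to 7.44) in bulk IL33KO and 7.20 CPM (6.13 to 9.64) in bulk WT. These ranges overlap in all 4 groups. Sorted WT 1 had both the lowest Il33 level, 5.76 CPM, and the lowest epithelial sum, 1019 CPM. The part of epithelial or stromal RNA in the Il33 level of sorted libraries was not tested.

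Il1rl1, which encodes ST2 in its membrane-bound and secreted forms, stood at 6.72, 8.17, 6.54, 17.8 and 17.5 CPM in sorted IL33KO libraries 1 to 5, against 1.65, 2.19, 1.59, 2.47 and 3.12 CPM in bulk IL33KO libraries. In WT hosts the values were 13.7, 7.34, 6.50, 8.75 and 18.3 CPM in sorted libraries 1 to 5, against 0.596, 0.564, 9.60, 0.687 and 2.39 CPM in bulk libraries. The compartments did not overlap in IL33KO hosts, as for 48.8% of all genes there, but in WT hosts bulk WT 3, with 744 Il1rl1 counts, lay above 3 of 5 sorted libraries. The log2 fold change was +2.36 (SE 0.66, edgeR adjusted p = 0.00426) in IL33KO hosts and +1.98 (SE 0.65, adjusted p = 0.0113) in WT hosts. Without bulk WT 3, the WT value was +3.36 (adjusted p = 1.38e-05).

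Among sorted libraries the highest Il1rl1 levels, 13.7 to 18.3 CPM, were those of WT 5, IL33KO 4, IL33KO 5 and WT 1, so both host genotypes held high libraries. From the sorted library with the highest Il1rl1 to the one with the lowest (WT 5, IL33KO 4, IL33KO 5, WT 1, WT 4, IL33KO 2, WT 2, IL33KO 1, IL33KO 3 and WT 3), the summed level of 10 mast cell genes was 565, 696, 682, 612, 464, 216, 470, 281, 345 and 279 CPM. The first 4 of these are also the 4 highest mast cell sums. Hdc, 1 gene of this list, was at 292, 233, 146, 279, 203, 140, 320, 166, 241 and 181 CPM in the same order. It thus gave 241 of 345 CPM in IL33KO 3, but 146 of 682 CPM in IL33KO 5. Neither this sum nor its correlation with Il1rl1, given below, was computed without Hdc. Cpa3, the mast cell carboxypeptidase, was at 36.1, 70.1, 67.1, 53.8, 33.8, 9.76, 19.9, 15.1, 14.3 and 12.7 CPM in the same order. Tpsb2, a mast cell tryptase, was at 107, 146, 207, 115, 90.7, 11.8, 45.2, 26.6, 19.1 and 29.4 CPM. WT 4, with 8.75 CPM of Il1rl1, was thus near WT 5, with 18.3 CPM of Il1rl1, in both genes. As a description over the 10 sorted libraries, which share the selection, Pearson r of log2 CPM between Il1rl1 and the summed lists was 0.820 for mast cell, 0.861 for regulatory T cell, 0.327 for ILC2 and -0.040 for pan-leukocyte genes. Of the regulatory T cell list, Ctla4 was at 87.0, 89.7, 73.4, 85.4, 41.9, 64.2, 34.1, 48.9, 35.6 and 67.0 CPM in the order above. Foxp3 was at 15.8, 17.1, 9.68, 15.7, 9.74, 11.9, 11.7, 18.7, 7.96 and 5.75 CPM. Foxp3 was thus highest in IL33KO 1, with 6.72 CPM of Il1rl1. The regulatory T cell r was not computed for single genes or without Ctla4. The ILC2 sum leaned on Crlf2, a receptor chain for the alarmin TSLP, at 24.5 to 38.9% of it in sorted IL33KO and 37.3 to 57.3% in sorted WT libraries, and r without Crlf2, left out after seeing the data, was 0.526. Sorted WT 3, lowest in Il1rl1, had 106 CPM of Crlf2, 8.78 CPM of Gata3 and 0.360 CPM of Il17rb, the IL-25 receptor chain, the last being the lowest Il17rb level of the 10 sorted libraries. The part of cell composition in the Il1rl1 level was not tested.

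In bulk WT libraries Il1rl1 varied more than any of the other 6 genes, with a coefficient of variation of 141%. Bulk WT 1, 2 and 4, at 0.596, 0.564 and 0.687 CPM of Il1rl1, had pan-leukocyte sums of 473, 431 and 482 CPM, the lowest of the bulk libraries. Over the 10 bulk libraries, r between Il1rl1 and the pan-leukocyte sum was 0.800. With the mast cell sum it was -0.031, but Mcpt4, a mast cell chymase, made up 44.6 to 63.1% of that sum in bulk IL33KO and 44.3 to 85.1% in bulk WT libraries, and without Mcpt4, left out after seeing the data, r was 0.942 in bulk and 0.794 in sorted libraries. Hdc averaged 9.98 CPM in bulk IL33KO and 11.7 CPM in bulk WT libraries, of mean sums without Mcpt4 of 34.3 and 28.9 CPM. These r were not computed without Hdc. Bulk WT 3, highest in Il1rl1, had a pan-leukocyte sum of 873 CPM, below the 1129 CPM of bulk IL33KO 5 and the 1106 CPM of bulk WT 5. It had 15.0 CPM of Tpsb2, while bulk IL33KO 2 had 15.2 CPM of Tpsb2 with 2.19 CPM of Il1rl1. The mast cell genes other than Mcpt4, 9 of 10, were called higher in sorted than in bulk libraries in each host genotype, with median log2 fold changes of +2.94 and +3.27 over the 10. Among all genes, 31.3% (IL33KO) and 33.7% (WT) were called higher.

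**Figure D2:**
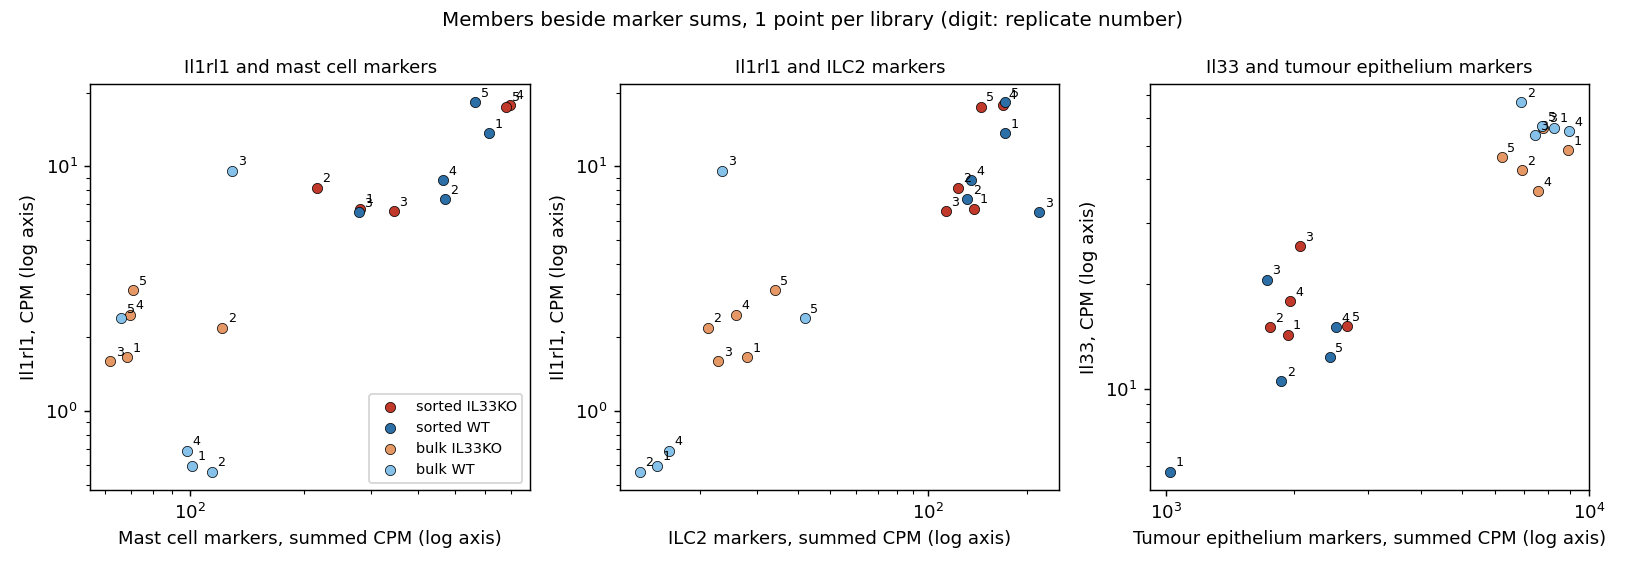
Il1rl1 against the summed CPM of mast cell markers (left) and ILC2 markers (centre), and Il33 against the summed CPM of tumour epithelium markers (right), 1 point per library on log axes, with the replicate number beside each point. The 4 sorted libraries with 13.7 to 18.3 CPM of Il1rl1 are the 4 with the highest mast cell sums, and bulk WT 3 stands above the other bulk libraries in Il1rl1; sorted and bulk libraries form separate groups in the Il33 panel.

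Il1rap, the chain that completes the receptors for IL-33, IL-1 and IL-36, was at 25.8, 23.2, 46.2, 33.1 and 19.9 CPM in sorted IL33KO libraries 1 to 5, against 2.81, 2.68, 4.91, 4.21 and 5.44 CPM in bulk IL33KO libraries. In WT hosts it was at 29.2, 29.4, 44.8, 19.98 and 28.4 CPM in sorted libraries, against 3.43, 4.01, 3.28, 3.12 and 6.38 CPM in bulk libraries. No sorted library overlapped a bulk library, as for 48.8% of all genes in IL33KO and 50.5% in WT hosts. The highest sorted values were again those of IL33KO 3 and WT 3. The log2 fold change was +2.89 (SE 0.29, edgeR adjusted p = 7.73e-08) in IL33KO hosts and +2.91 (SE 0.29, adjusted p = 4.42e-08) in WT hosts. The 8 pan-leukocyte genes were all called higher, beside 31.3% of all genes in IL33KO and 33.7% in WT hosts. They ran from +2.72 to +3.40 in IL33KO hosts, a range that holds the Il1rap value, and from +3.07 to +3.93 in WT hosts, above the Il1rap value.

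The receptors that share the accessory chain did not move as one. Il1r2, the IL-1 decoy receptor, was higher in sorted leukocytes by +4.22 log2 in IL33KO and +4.14 log2 in WT hosts (edgeR adjusted p = 4.86e-11 and 3.54e-11), and Il1rl2, the IL-36 receptor, by +1.81 and +2.30 (adjusted p = 2.81e-07 and 1.07e-08). Il1r1, the signalling IL-1 receptor, was lower by -2.39 and -2.52 (adjusted p = 3.64e-10 and 1.25e-10). In the Il1rl1 gene cluster, Il18r1 and Il18rap, the 2 chains of the IL-18 receptor, were lower in sorted leukocytes, with log2 fold changes of -0.61 and -0.47 in IL33KO and -1.35 and -0.60 in WT hosts. Of the 5 neighbours of Il1rl1, 2 were therefore higher and 3 lower in sorted leukocytes in either host genotype, where 63.0% (IL33KO) and 68.0% (WT) of all genes were called.

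Myd88, the adaptor that docks on the activated receptor, was at 182, 197, 197, 207 and 167 CPM in sorted IL33KO libraries 1 to 5, against 64.9, 64.6, 58.2, 64.3 and 67.7 CPM in bulk IL33KO libraries. In WT hosts it was at 232, 240, 203, 201 and 213 CPM in sorted libraries, against 56.0, 53.0, 65.6, 58.9 and 70.2 CPM in bulk libraries. The sorted and bulk values were far apart, and the log2 fold changes were +1.57 (SE 0.09, edgeR adjusted p = 8.50e-11) in IL33KO hosts and +1.84 (SE 0.09, adjusted p = 1.03e-11) in WT hosts. By p-value Myd88 was gene 65 of 18145 in IL33KO hosts and gene 35 in WT hosts. Myd88 overlaps Acaa1a on the opposite strand, and since the strand setting of the counting is not given in the sources used here, reads of the shared stretch cannot be told apart.

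Irak4, the kinase that MyD88 recruits first, averaged 45.9 ± 2.98 CPM in sorted IL33KO and 27.9 ± 3.19 CPM in bulk IL33KO libraries, and 49.5 ± 3.14 CPM in sorted WT and 31.0 ± 3.91 CPM in bulk WT libraries (SD, n = 5 each). The ranges did not overlap, with a lowest sorted value of 43.5 CPM and a highest bulk value of 34.3 CPM. This was common, at 48.8% of all genes in IL33KO and 50.5% in WT hosts, and it also held for Traf6. Its log2 fold changes were +0.72 (SE 0.10, edgeR adjusted p = 2.80e-06) in IL33KO and +0.67 (SE 0.10, adjusted p = 4.48e-06) in WT hosts. Irak4 overlaps Twf1 on the opposite strand, with the same limit as for Myd88. Traf6, the ubiquitin ligase downstream of the kinases, averaged 51.2 ± 7.01 CPM in sorted IL33KO and 27.4 ± 2.50 CPM in bulk IL33KO libraries, and 51.0 ± 9.23 CPM in sorted WT and 29.7 ± 3.82 CPM in bulk WT libraries. The lowest sorted value, 41.0 CPM, was above the highest bulk value, 35.2 CPM, and the log2 fold changes were +0.90 (SE 0.12, edgeR adjusted p = 4.47e-06) in IL33KO and +0.78 (SE 0.12, adjusted p = 1.74e-05) in WT hosts.

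Irak1, the kinase that IRAK4 phosphorylates, had the smallest sorted to bulk difference of the 7 genes in each host genotype. It was at 88.9, 93.8, 87.8, 86.8 and 86.0 CPM in sorted IL33KO libraries 1 to 5, against 73.2, 67.8, 63.0, 76.8 and 68.9 CPM in bulk IL33KO libraries. In WT hosts it was at 88.7, 86.9, 105, 86.5 and 77.1 CPM in sorted libraries, against 81.4, 80.0, 70.7, 81.0 and 65.4 CPM in bulk libraries, and the 2 ranges overlapped through sorted WT 5. The log2 fold change was +0.34 (SE 0.08, edgeR adjusted p = 0.00175) in IL33KO hosts and +0.23 (SE 0.08, adjusted p = 0.0219) in WT hosts. The WT call was lost without sorted WT 3 (adjusted p = 0.0778), without bulk WT 3 (0.0563) and without bulk WT 5 (0.0641).

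**Figure D3:**
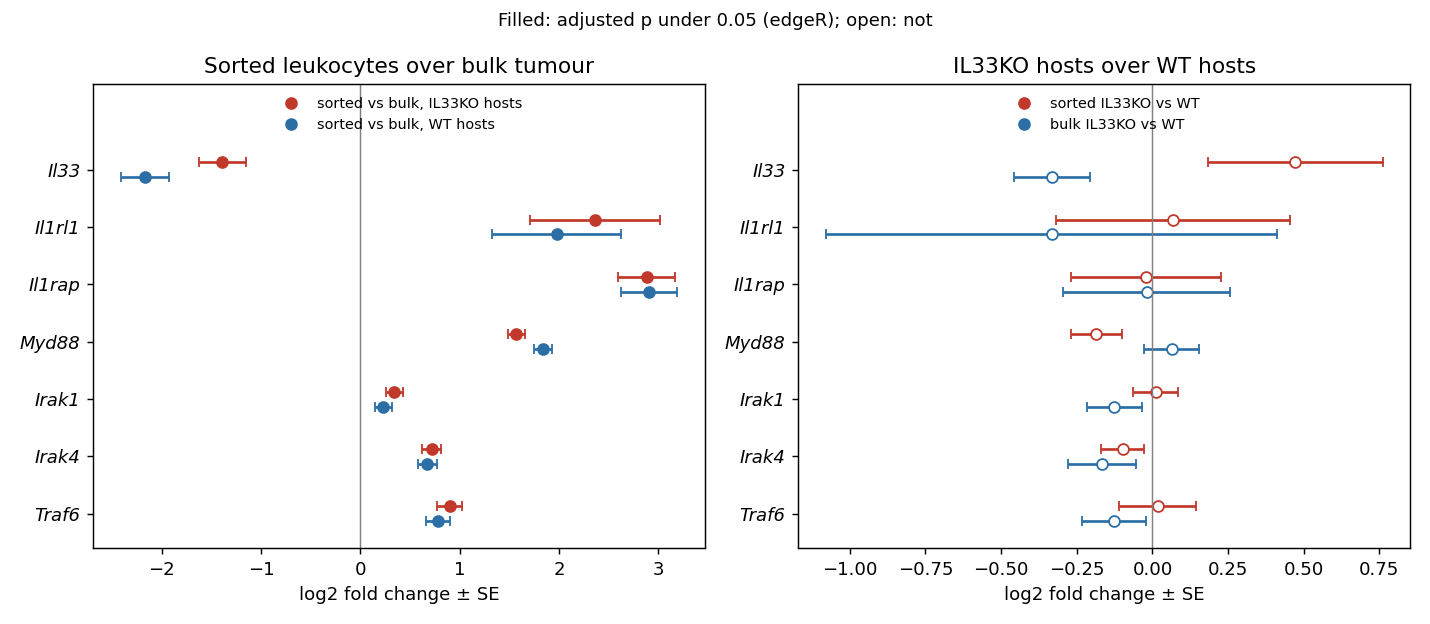
Log2 fold change ± SE of the 7 genes, sorted leukocytes over bulk tumour (left, IL33KO hosts in red and WT hosts in blue) and IL33KO hosts over WT hosts (right, sorted in red and bulk in blue); filled points passed adjusted p 0.05 in edgeR. Il33 is the only one of the 7 with negative values on the left, and no point on the right is filled.

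Corrected for the exon length of each gene, the order of the levels also differed between the compartments. In sorted IL33KO libraries it ran from Myd88 (73.8 ± 6.07 CPM per kb) through Irak1 (18.8 ± 0.654), Irak4 (9.14 ± 0.594), Traf6 (6.49 ± 0.890), Il33 (6.09 ± 1.64) and Il1rap (2.61 ± 0.919) to Il1rl1 (1.65 ± 0.843 CPM per kb). Of these neighbours, Traf6 and Il33, and Il1rap and Il1rl1, overlapped between libraries. The order was the same in sorted WT libraries, where Il33, at 4.44 ± 1.90 CPM per kb, overlapped both Traf6 and Il1rap. In bulk tumour Il33 was second, at 15.97 ± 2.49 CPM per kb in bulk IL33KO and 19.99 ± 1.79 CPM per kb in bulk WT libraries, overlapping Irak1 in bulk IL33KO and Myd88 in bulk WT. Il1rap and Il1rl1 were last in both bulk groups, between 0.320 and 0.401 CPM per kb on average, and overlapped each other. The 0.401 of Il1rl1 in bulk WT rested on WT 3, at 1.39 CPM per kb, with 0.0818 to 0.347 in the other bulk WT libraries. Per kb, Il1rap over Il1rl1 had a median of 2.76 (0.207 to 4.31) in bulk WT and 1.03 (0.742 to 1.87) in bulk IL33KO libraries. Per kb, the median ratio of Il33 to Il1rl1 was 4.39 (2.06 to 9.38) in sorted IL33KO, 3.42 (1.01 to 7.55) in sorted WT, 46.3 (35.5 to 84.4) in bulk IL33KO and 191 (13.4 to 282) in bulk WT libraries. The lowest bulk WT ratio was that of WT 3, below every bulk IL33KO library, and the bulk WT median was 124 without WT 1 or without WT 2.

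**Figure D4:**
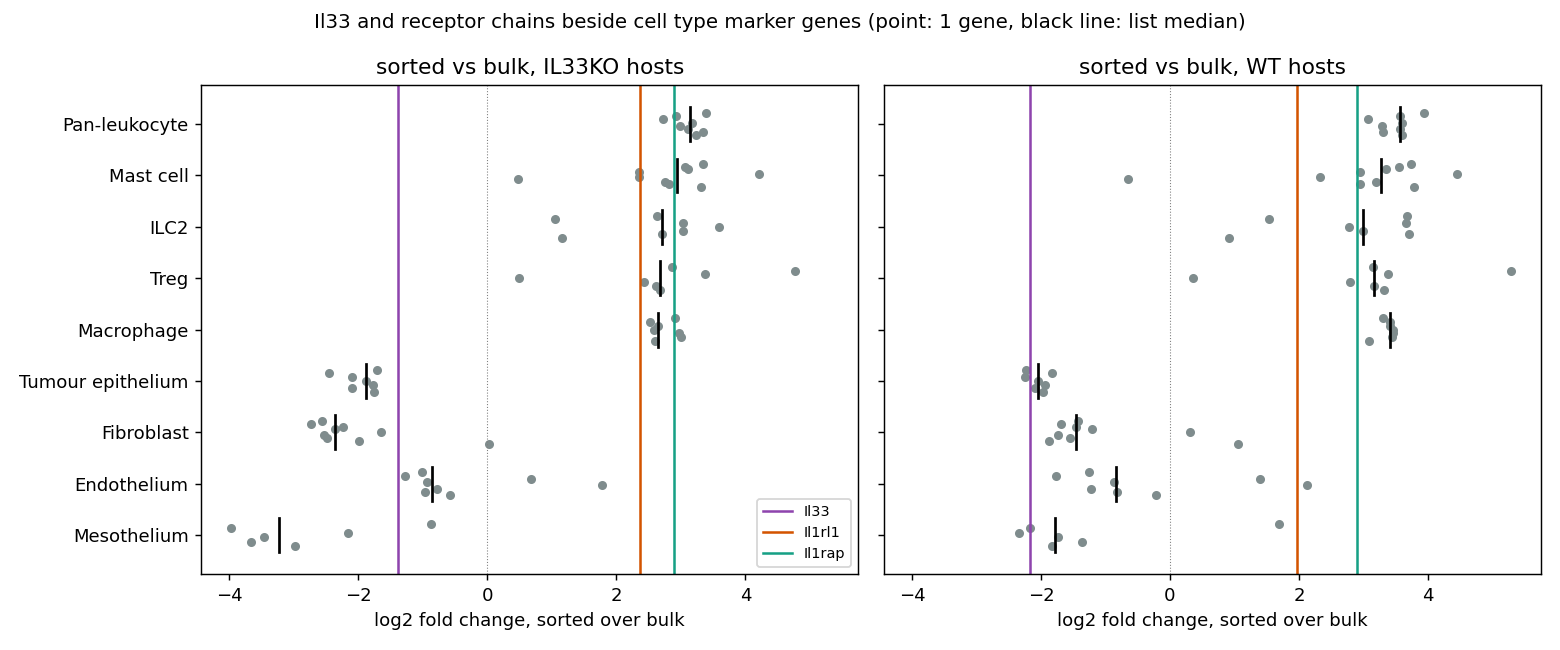
Log2 fold change of sorted over bulk for each marker gene (grey points) with the list median (black line), in IL33KO hosts (left) and WT hosts (right), beside the values of Il33, Il1rl1 and Il1rap (coloured lines). Il33 lies on the side of the list medians of the epithelial, fibroblast, mesothelial and endothelial markers, and Il1rl1 and Il1rap lie on the side of the leukocyte markers.

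Further along the pathway the 13 relay genes, from the TAK1 complex to NF-kB and the MAP kinases, were divided: 6 were higher and 1 lower in sorted leukocytes in IL33KO hosts, and 6 higher and 2 lower in WT hosts. Calls in either direction covered 63.0% of all genes in IL33KO and 68.0% in WT hosts, so this list did not stand out by its calls. Their median log2 fold changes were +0.03 and +0.19, with medians of +0.02 and 0.00 over all genes. Nfkb1, the p105/p50 subunit of NF-kB, was higher by +0.93 in IL33KO and +0.72 in WT hosts, and Mapk14, the p38 alpha kinase, by +0.80 and +0.63. Tab1, a subunit of the TAK1 complex, was lower by -0.74 and -0.70. Chuk (+0.31) was called in IL33KO hosts alone, and Rela (+0.27) and Ikbkg (-0.38) in WT hosts alone, and the interaction passed for none of these 3.

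Of 6 genes that restrain the pathway, 4 were higher and 2 lower in sorted leukocytes in both host genotypes, with a median log2 fold change of +1.10 in IL33KO and +1.13 in WT hosts. These calls stand beside 63.0% and 68.0% of all genes called in either direction. Tnfaip3 (A20), a deubiquitinase that ends NF-kB signalling, was higher by +2.99 in IL33KO and +3.05 in WT hosts, and Nfkbia, the inhibitor of NF-kB, by +2.66 and +3.34. Irak3 (IRAK-M), a catalytically inactive IRAK, was higher by +1.69 and +1.62, and Tollip by +0.51 and +0.64. Sigirr, an inhibitory receptor of the family, was lower by -1.19 and -1.14, and Fbxl19, a ubiquitin ligase component that promotes loss of ST2, by -0.81 and -0.62. Adjusted p was at most 0.00117 for each of these in edgeR.

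Genes known as outputs of ST2-bearing cells were mostly higher in sorted leukocytes, at low levels. Of the 8, Il9 was too low to test, 5 of the other 7 were called higher in IL33KO hosts and 6 in WT hosts. Among all genes tested, 31.3% and 33.7% were called higher. Il13, the type 2 cytokine of ILC2, averaged 3.17 ± 2.06 CPM in sorted IL33KO and 0.355 ± 0.262 CPM in bulk IL33KO libraries, and 3.56 ± 2.81 CPM in sorted WT and 0.160 ± 0.102 CPM in bulk WT libraries. Il6 was higher by +3.80 and +4.50, Il4 by +3.30 and +4.37, Il5 by +2.64 and +3.19, and the chemokine Ccl1 by +1.83 and +2.93. Bulk Il4 was at 0.0435 to 0.297 CPM in IL33KO and 0.0130 to 0.207 CPM in WT hosts. Bulk Il5 was at 0.0412 to 0.203 CPM and 0 to 0.181 CPM. Some of these bulk values lie at or below 3 counts, which are 0.0326 to 0.0686 CPM. Sorted Il5 was at 0.0391 to 1.76 CPM in IL33KO and 0.129 to 1.78 CPM in WT hosts, so Il5 overlapped between the compartments in both. Csf2 (GM-CSF) was called in WT hosts, at +1.28, and had a value of +1.00 with adjusted p = 0.0546 in IL33KO hosts. Areg, the epidermal growth factor family member amphiregulin, had log2 fold changes of -0.17 and -0.03, with adjusted p = 0.461 and 0.912.

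The second comparison asked how the pathway differed between IL33KO and WT hosts. Within sorted leukocytes, 0 of 7 genes passed adjusted p 0.05 in edgeR, beside 0.0120% of 16731 genes tested, and within bulk tumour 0 of 7 passed, beside 0% of 17258. At an unadjusted p under 0.05 there was 1 of 7 in each compartment, Myd88 in sorted leukocytes and Il33 in bulk tumour. DESeq2 called 0 of 7 in each. Voom with quality weights, a limma fit that weights each library by its own noise, called 0 of 7 in sorted leukocytes and 2 of 7 in bulk tumour. The labels leave out which part of Il33 is deleted, and a count per gene cannot be split by exon, so the Il33 level does not check the genotype labels.

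Il33 was counted in every IL33KO library, with 705 to 1123 counts in sorted and 3043 to 4452 counts in bulk libraries. In sorted leukocytes it averaged 17.6 ± 4.73 CPM in IL33KO and 12.8 ± 5.48 CPM in WT hosts (SD, n = 5 each), a log2 difference of +0.47 (SE 0.29, edgeR adjusted p = 0.524), with 5 of 5 IL33KO libraries above the WT median. Leaving out both libraries that stood apart gave +0.52 (adjusted p = 0.309). In bulk tumour it averaged 46.1 ± 7.18 CPM in IL33KO and 57.7 ± 5.17 CPM in WT hosts, a log2 difference of -0.33 (SE 0.13, edgeR adjusted p = 0.724), with 4 of 5 IL33KO libraries below the WT median. The groups overlapped in both compartments, since bulk IL33KO 3, at 56.3 CPM, reached the level of bulk WT libraries. Voom with quality weights passed the bulk difference, at -0.43 (adjusted p = 0.0176, range over alternatives 0.0176 to 0.988). The difference between the compartments, the interaction, was +0.78 (SE 0.33, edgeR adjusted p = 0.445).

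Beside these Il33 values, the epithelial sum had a median of 1959 CPM in sorted IL33KO and 1873 CPM in sorted WT libraries, and of 7561 CPM in bulk IL33KO and 7761 CPM in bulk WT libraries. Genes of fibroblasts, another known source of IL-33, summed to a median of 2482 CPM in bulk IL33KO and 1270 CPM in bulk WT libraries, with 0 of 9 called in edgeR. As a description over 10 libraries, r between Il33 and the epithelial sum was 0.592 among sorted and 0.163 among bulk libraries, and r between Il33 and the fibroblast sum was 0.048 and -0.563. Their part in the Il33 level was not tested.

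For Il1rl1 the genotype values turned on single libraries. In sorted leukocytes it averaged 11.4 ± 5.81 CPM in IL33KO and 10.9 ± 4.98 CPM in WT hosts, a log2 difference of +0.07 (SE 0.39, edgeR adjusted p = 0.963). In bulk tumour it averaged 2.21 ± 0.629 CPM in IL33KO and 2.77 ± 3.89 CPM in WT hosts, a log2 difference of -0.33 (SE 0.75, adjusted p = 0.881), although 5 of 5 IL33KO libraries were above the WT median of 0.687 CPM. The bulk WT mean rested on WT 3, without which the log2 difference was +1.04 (SE 0.47, adjusted p = 0.678). Voom with quality weights gave +1.52 (adjusted p = 0.0396), the scaled table of the authors +0.59, and a fit with the replicate number as a block +0.72. A direction for Il1rl1 in bulk tumour could therefore not be given. Pan-leukocyte genes had a median of 765 CPM in bulk IL33KO and 482 CPM in bulk WT libraries, with 8 of 8 positive and 0 of 8 called, and their part in the Il1rl1 level was not tested.

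Il1rap had nearly equal means in both hosts, at 29.6 ± 10.4 CPM in sorted IL33KO and 30.4 ± 8.97 CPM in sorted WT libraries, and 4.01 ± 1.24 CPM in bulk IL33KO and 4.04 ± 1.35 CPM in bulk WT libraries. Its log2 differences were -0.02 in both (SE 0.25 and 0.28, edgeR adjusted p = 0.984 and 0.983), and their sign changed when single libraries were left out. Myd88 averaged 190 ± 15.6 CPM in sorted IL33KO and 218 ± 17.7 CPM in sorted WT libraries, a log2 difference of -0.19 (SE 0.08, edgeR adjusted p = 0.387), with 5 of 5 IL33KO libraries below the WT median but 207 CPM in IL33KO 4 inside the WT range. In bulk tumour it averaged 63.9 ± 3.49 CPM in IL33KO and 60.7 ± 7.04 CPM in WT hosts (log2 +0.06, SE 0.09, adjusted p = 0.816). The interaction for Myd88 was -0.27 (SE 0.12, adjusted p = 0.445).

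Irak1, Irak4 and Traf6 had small genotype values throughout. In sorted leukocytes they were +0.01 (SE 0.08), -0.10 (SE 0.07) and +0.02 (SE 0.13) on the log2 scale, with edgeR adjusted p from 0.605 to 0.970. In bulk tumour all 3 were negative, at -0.13 (SE 0.09), -0.17 (SE 0.11) and -0.13 (SE 0.11), with 5 of 5 IL33KO libraries below the WT median for each, and adjusted p from 0.724 to 0.739. For Traf6 this rested on 29.02 CPM in bulk IL33KO 1 against a WT median of 29.05 CPM. The 3 genes went together over the bulk libraries (Pearson r 0.698 to 0.886), so their counts are not separate observations. The groups overlapped for all 7 genes in both compartments, where 3.69% of all genes did not overlap in sorted leukocytes and 0.661% in bulk tumour.

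Over all 18145 genes, the interaction of genotype and compartment passed for 0 (0%) in edgeR, with 2028 at an unadjusted p under 0.05, 4 passing in DESeq2 and 3406 in voom with quality weights. Of the 7 genes it passed for 0 in edgeR and in DESeq2, with Il33 and Myd88 under an unadjusted p of 0.05, and for the same 2 in voom with quality weights (Il33 +0.96, adjusted p = 0.0122; Myd88 -0.38, adjusted p = 0.0158). None of the relay, restraint, shared receptor, gene cluster or output genes was called between hosts in either compartment in edgeR. The smallest p among them in sorted leukocytes were those of Tab3 (log2 +0.31, adjusted p = 0.219), Nfkbia (-0.57, adjusted p = 0.274) and Il18r1 (+0.45, adjusted p = 0.310). In bulk tumour Il13 had a value of +1.13 (SE 0.62, adjusted p = 0.724).

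Across the 10 libraries of a compartment, the 7 genes went together in few pairs, given here as a description over libraries that share their source and depth. In sorted leukocytes the highest Pearson r of log2 CPM was 0.921, between Il1rap and Traf6, followed by 0.761 between Myd88 and Irak4. Il33 and Il1rl1 had r of -0.332 in sorted leukocytes and -0.426 in bulk tumour. In bulk tumour Irak1 went with Irak4 (0.886) and Traf6 (0.825), and Il1rl1 with Myd88 (0.771).

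The genes most like Il1rl1 in bulk tumour, of 10743 compared, were Kit, the stem cell factor receptor of mast cells and progenitors (r = 0.953, and 0.983 without bulk WT 3), and then Hebp1, Saa3, Brk1 and Tmem141 (0.888 to 0.923). Kit ranged from 3.65 to 6.53 CPM over the bulk libraries. In sorted leukocytes the nearest to Il1rl1, of 10549, were Map4 (0.922), the transcription factor Runx2 (0.894), the NK cell lectin receptor Klre1 (0.892), Ctif (0.886) and the checkpoint receptor Lag3 (0.884). Those most like Il33 were Pgap1, Mfn1, Bmpr2, Pcgf3 and Sema3c in sorted leukocytes (0.946 to 0.955), and the heat shock protein Hsph1, Fip1l1, the co-chaperone Stip1, Wdr5 and Yars2 in bulk tumour (0.845 to 0.911). The 5 genes of the sorted list were, as was Il33, lower in every sorted than in every bulk library. Pgap1 was at 26.2 to 76.0 against 138 to 325 CPM, and Mfn1 at 25.4 to 32.6 against 38.9 to 60.5 CPM. Within a host genotype, 48.8% (IL33KO) and 50.5% (WT) of all genes do not overlap between compartments. No gene stood among the 5 nearest of the same member in both compartments.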

How the data were processed

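RNA was measured in 20 libraries, 5 in each of 4 groups taken from the sample titles. Per the labels' protocols, RNA was read as poly(A) RNA with a stranded kit. Per the submitters' processing notes, Picard, HTSeq and DESeq were used with the mm10 build; no versions are named, and for the aligner and the counting's strand setting the sources used here give nothing. The authors deposited raw counts per gene with no normalization (46983 genes and 5 summary lines, which held 26.1 to 40.5% of a library and were left out of library sizes and tests), and a second table of scaled signal, counts divided by size factors per the file headers, used only as an alternative. Libraries held 51.3 to 81.0 M counts in genes; the floor of 3 counts covers counting error only.

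Counts were tested in R 4.3.3 with edgeR 4.0.16 (filterByExpr, TMM factors 0.762 to 1.25, glmQLFit with robust estimation, two-sided glmQLFTest), with Benjamini-Hochberg adjustment over all genes tested and a threshold of 0.05. Genotype was fitted on the 10 libraries of a compartment; sorted against bulk and the interaction used all 20. CPM were computed on library sizes multiplied by the TMM factors, with a prior count of 2 for log2 CPM. Coordinates and exon lengths came from GENCODE M21, matched by identifier for 46488 genes; promoter windows came from RefSeq and were matched by symbol for 7 of 7 genes. Alternatives were DESeq2 1.42.0, its size factors, no filter, limma 3.58.1 voom with quality weights, limma on log2 of the scaled table with a pseudocount of 1 and a minimum mean of 5, a replicate block, and each library left out. The edgeR test was also run on simulated counts with known changes, built from the gene means and common dispersion of these data.

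The 7 genes and the 18 gene lists (119 symbols) were chosen with earlier results of these data known. Named beyond the 7 were list members that passed, or the 3 with the smallest p, and the 5 genes with the highest Pearson r to Il33 or Il1rl1 among genes with at least 5 CPM on average; other list members named beside a result were chosen after their values were seen. The labels name 5 hosts per genotype without tying libraries to mice, so p-values measure the spread between libraries, which may be partly technical. No replicates agreed within sampling noise (lowest chi-square per gene 18.3).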

Additional observations from a re-analysis of the deposited data

Results flagged for a closer look

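Among 28 sets of 5 values (7 genes in 4 groups), 4 held a library whose gap to its nearest neighbour, divided by the range of the set, was above Dixon's critical value of 0.710. Chance gives this in about 1 in 20 sets. Il1rl1 in bulk WT 3 stood at 9.60 CPM (gap over range 0.798), above the other bulk WT libraries at 0.564 to 2.39 CPM, and this library sets the direction of the bulk genotype value. Il33 in bulk WT 2 stood at 66.7 CPM (0.748), with the other bulk WT libraries at 53.6 to 56.9 CPM. Il1rap in bulk WT 5 stood at 6.38 CPM (0.728), with the others at 3.12 to 4.01 CPM. Traf6 in bulk IL33KO 3 stood at 23.0 CPM (0.810), below the other bulk IL33KO libraries at 27.9 to 29.0 CPM.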

How the results depend on the processing

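Sorted against bulk, the 7 genes kept their direction under every alternative, and all 7 passed in IL33KO hosts in each; in WT hosts 6 or 7 passed, with Irak1 missing without a low-count filter (log2 +0.22, adjusted p = 0.0672) and in voom with quality weights (+0.10, 0.138). Genes called between hosts depended on the tool. In sorted leukocytes there were 2 in edgeR, 566 in DESeq2, 400 in voom and 1 to 3 with 1 library left out; in bulk tumour 0 in edgeR, 50 in DESeq2, 3371 in voom and 0 to 19 with 1 left out, the 19 without bulk WT 5; for the interaction 0 in edgeR, 1 with DESeq2's size factors, 4 in DESeq2, 3406 in voom and 0 to 27 with 1 left out, the 27 without bulk WT 5. Voom called 2 of 7 genes in bulk tumour and 2 of 7 for the interaction; the cause was not tested. Il1rl1 turned positive in bulk tumour in voom (+1.52), the scaled table (+0.59) and without bulk WT 3 (range with 1 left out -0.59 to +1.04), and its interaction negative (-1.34, -0.57, and -0.996 to +0.65). Il1rap in bulk turned positive in voom (+0.079) and ranged from -0.15 to +0.20 with 1 left out. With 1 left out, sorted genotype values crossed 0 for Il1rl1 (-0.15 to +0.34), Il1rap (-0.24 to +0.15), Irak1 (-0.034 to +0.068) and Traf6 (-0.052 to +0.12), and interactions for Il1rap (-0.25 to +0.16) and Irak4 (-0.0058 to +0.11); none passed. Same-numbered libraries correlated by -0.261 to 0.590, and the labels do not say what a number stands for. The same number matched best for replicates 2, 3 and 5 between the sorted groups (0.187, 0.271 and 0.338). It also did for replicate 5 between the bulk groups (0.590), 3 between sorted and bulk IL33KO (0.300) and 4 between sorted and bulk WT (0.173). Elsewhere another number matched best. Whether libraries share a batch by number was not tested. With the replicate block 1 gene was called in sorted leukocytes, and Il1rl1 was +0.72 in bulk tumour and -0.75 in the interaction. Leaving out sorted WT 3 and IL33KO 3, chosen after seeing the data, called 0 of 7. At these depths 3 counts are 0.0326 to 0.0686 CPM, and the lowest count of the 7 genes was 40.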

Other observations

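Other leukocyte genes also followed the selection. For the counts below, 31.3% of all genes were called higher and 31.7% lower in sorted libraries in IL33KO hosts, and 33.7% and 34.3% in WT hosts. Macrophage genes summed to 5932 to 9542 CPM in sorted IL33KO and 10019 to 12351 CPM in sorted WT libraries, against 1149 to 1460 CPM in bulk IL33KO and 562 to 1833 CPM in bulk WT libraries, and 7 of 7 were called higher in sorted libraries in both host genotypes. Neutrophil genes (5 of 5 called higher in both) reached 15750 CPM in sorted IL33KO 3. Regulatory T cell genes were called higher in 7 of 7 cases in IL33KO and 6 of 7 in WT hosts, and ILC2 genes in 7 of 7 in both. Eosinophil genes were called higher in 4 of 5 and 3 of 5 cases, with 1 of 5 lower in each. Basophil genes were called higher in 2 of 3 and lower in 1 of 3 in both. Endothelial genes were divided, with 2 of 8 called higher and 5 of 8 lower in both; mesothelial genes were called lower in 5 of 6 in both. Between host genotypes edgeR called 0 genes of each of these lists in either compartment.

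Acinar genes, the digestive enzymes of normal pancreas, summed to 572 to 34949 CPM in sorted IL33KO and 510 to 3632 CPM in sorted WT libraries, against 2.36 to 1358 CPM in bulk IL33KO and 6.14 to 7506 CPM in bulk WT libraries. The highest values were in sorted IL33KO 3 and bulk WT 5. Whether they bear on the values of Il33 or its receptor was not tested.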
